A study of Mus musculus with 4 samples.

Results

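The cells described here are tracheal basal cells of adult mice that carry Serpinb2 messenger RNA. They numbered 753 of the 3701 cells gated as basal, and of 21667 cell barcodes in all. They were chosen by measured values, in steps. A barcode needed at least 300 detected genes and at most 20% mitochondrial UMIs (unique molecular identifiers, each counting 1 captured RNA molecule), which 20359 met. Krt5, Krt14, Krt15 and Aqp3 together had to reach 0.2% of its UMIs, which left 4870. Scgb1a1 had to stay under 2% of UMIs, which left 4059, and the ciliated genes Ccdc153, Tmem212, Dynlrb2 and Rsph1 together under 0.2%, which left 4040. Krt13 and Krt4 together had to stay under 0.1%, which left the 3701 gated basal cells. The last step asked for at least 5 Serpinb2 UMIs per 10000, and the 2948 basal cells below it are called the other basal cells.

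The study sequenced RNA of single tracheal cells from wild-type mice and from 3 mutant lines with defects of the ciliary central pair, which model the motile cilia disease primary ciliary dyskinesia. Spef2 is mutated in bgh, Cfap54 carries a gene trap in Cfap54gt/gt, and Cfap221 is missing in nm1054. Every mouse was of the 129S6/SvEvTac background and 5 to 8 months old, and a group was 1 library that pooled 6 tracheas (5 in the bgh group). The labels' protocols describe pronase digestion, a plating step against fibroblasts, removal of dead cells and a load of 8500 cells to capture no fewer than 5000, steps that can set which cells were seen. The deposited matrix numbers its libraries 1 to 4, and no source used here ties a number to a genotype. Levels are therefore given per numbered library, no genotypes are compared, and with 1 library per genotype there is no test between libraries.

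Basal cells sit on the basement membrane of the airway epithelium, anchored by hemidesmosomes, and renew the secretory and ciliated cells above them. On the way up they lose contact with the basement membrane, strengthen their cell-to-cell junctions and pass through suprabasal or intermediate states. Serpinb2 encodes plasminogen activator inhibitor type 2, a clade B serpin that inhibits the urokinase-type and tissue-type plasminogen activators and is held largely inside the cell in squamous epithelia. Krt16 and its partner Krt6a are keratins of activated and wounded squamous epithelium. Calcb encodes the beta form of calcitonin gene-related peptide, better known as a vasodilator peptide of sensory nerves.

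The DNA just upstream of Serpinb2 and of 3 genes that were higher together with it was read for sequence motifs. These 3 were picked because they hold the AP-1 letters, so their sharing them is no result, and most of the matched higher genes lack the letters. The windows below are the 250 bases before the annotated start, from RefSeq on the build GRCm38.p6, while the deposited counts were made on GRCm39. Each is written 5′ to 3′ on the gene's own strand, with letters of 2 searched motifs in capitals. The motifs were the AP-1 site TGANTCA, which reads alike on both strands, and the TATA box TATAAA, searched on both strands; the letters in capitals do not overlap.
Serpinb2: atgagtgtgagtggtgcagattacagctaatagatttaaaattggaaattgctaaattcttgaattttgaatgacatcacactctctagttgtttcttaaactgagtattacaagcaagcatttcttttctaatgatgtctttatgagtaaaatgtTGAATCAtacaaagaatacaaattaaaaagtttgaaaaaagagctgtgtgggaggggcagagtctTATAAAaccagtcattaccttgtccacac
Ecm1: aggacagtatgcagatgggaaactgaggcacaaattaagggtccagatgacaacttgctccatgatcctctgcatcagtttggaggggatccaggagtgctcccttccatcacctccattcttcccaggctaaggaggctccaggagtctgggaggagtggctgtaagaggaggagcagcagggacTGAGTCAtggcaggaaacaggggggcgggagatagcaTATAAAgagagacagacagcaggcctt
Plet1: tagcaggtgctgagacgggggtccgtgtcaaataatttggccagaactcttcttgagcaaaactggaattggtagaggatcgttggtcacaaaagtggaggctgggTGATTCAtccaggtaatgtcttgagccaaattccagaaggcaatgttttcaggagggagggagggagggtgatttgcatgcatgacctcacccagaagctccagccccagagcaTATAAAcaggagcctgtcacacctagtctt
Cldn4: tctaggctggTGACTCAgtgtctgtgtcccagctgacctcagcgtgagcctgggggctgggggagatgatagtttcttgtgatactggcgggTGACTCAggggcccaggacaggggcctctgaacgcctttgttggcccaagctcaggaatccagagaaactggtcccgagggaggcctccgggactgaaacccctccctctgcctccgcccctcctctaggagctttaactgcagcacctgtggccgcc
The Serpinb2 window shown is chr1:107511173-107511422 on the + strand, with the AP-1 letters starting at base -94 and the TATA letters at base -29 from the start site. A further RefSeq start for Serpinb2 lies downstream, and from it the same letters stand at -181 and -116. Ecm1, which encodes a secreted matrix protein of squamous epithelium, has chr3:95739570-95739819 on the - strand, with AP-1 letters at -64 and TATA letters at -27. Plet1, which encodes a membrane protein of placental and epithelial progenitors, has chr9:50494275-50494524 on the + strand, with AP-1 letters at -144 and TATA letters at -30. Cldn4, a tight junction claudin, has chr5:134946935-134947184 on the - strand, with AP-1 letters at -240 and -158 and no TATA letters.

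Of the 86 genes called higher in the Serpinb2-positive basal cells below, 57 matched an entry of that promoter table, and 12 of these (21.1%) held TGANTCA in the window. The motif was in 4 of 35 matched genes (11.4%) among the 51 called lower, in 5.47% of all 7950 matched genes tested and in 7.82% of all 27025 genes of the table. The 12 were Cldn4, Creb5, Dmkn, Ecm1, Fam214b, Gja1, Il1rn, Nfkb2, Plet1, Serpinb5, Tmprss11d and Tnfaip3. TATAAA stood in 15.8% of the genes called higher, 17.1% of those called lower and 7.75% of the genes tested. The Grainyhead letters AACCGGTT were in 0 windows of either group and in 0.264% of the genes tested. A match of letters is a description and does not show that a factor binds there. Calcb and Krt16 were not among the matched genes.

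Library totals ran from 39658153 to 53491773 UMIs. The Serpinb2-positive cells numbered 107, 113, 275 and 258 in libraries 1 to 4 and held 1041640, 969681, 1483608 and 1811595 UMIs. Their median was 5460 UMIs and 1884 genes a cell, against 3836 UMIs and 1448 genes in the other basal cells, so they were the more deeply counted class in each library. Mitochondrial UMIs had a median of 4.90% and 5.41%. A doublet score marked 2.66% of them and 2.85% of the others. Across libraries, 52 barcode sequences occurred more than once, and 3 of the Serpinb2-positive cells carried such a barcode.

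Serpinb2 itself, which the rule used, stood at 3386, 3096, 2981 and 2173 CPM (UMIs of a gene per 1000000 UMIs of the cells summed) in libraries 1 to 4, and at 23.4, 26.6, 33.1 and 39.7 CPM in the other basal cells. Of the other basal cells, 2678 (90.8%) had no Serpinb2 UMI. The chosen cells had a median of 20.3 Serpinb2 UMIs per 10000 with quartiles at 10.9 and 40.5 and a maximum of 244, so the gene varied widely among them. The cut rests on few molecules for some cells: 43 cells at 4 to under 5 per 10000 had a median of 2 Serpinb2 UMIs, and 32 cells at 5 to under 6 had a median of 3. Only 2 chosen cells had a single Serpinb2 UMI and 33 had 2, while 471 (62.5%) had 10 or more.

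Free RNA in droplets can give UMIs to cells that do not express a gene. Among 463 cells gated as ciliated, a type that should lack the gene, 1.08% (exact Clopper-Pearson 95% interval 0.352 to 2.5) had a Serpinb2 UMI, at a median depth of only 1377 UMIs. Among 7199 cells gated as secretory, at a median depth of 12713 UMIs, the share was 18.2% and the level 137 CPM. In 72 hillock cells, gated by at least 0.5% Krt13 plus Krt4, the share was 95.8% and the level 4129 CPM. Hillock cells, which express Krt13 in patches of stratified tracheal epithelium, thus carried Serpinb2 as well, while ciliated-gated cells were near 0.

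Serpinb2-positive cells made up 18.4% of the gated basal cells in library 1 (exact 95% interval 15.3 to 21.7), 18.9% in library 2 (15.9 to 22.3), 21.6% in library 3 (19.3 to 23.9) and 20.7% in library 4 (18.5 to 23.1). All 4 intervals overlap, and they cover counting error only. The share over all libraries was 20.3% (19.1 to 21.7). With cells thinned to 2000 UMIs and gated again it was 22.7% of 3526 cells. Cells under 2000 UMIs were left out there, and a single Serpinb2 UMI met the cut, so that share is of a looser rule. As a share of all filtered cells they were 2.81%, 2.86%, 3.84% and 4.74%, an order that also depends on how many cells of other types each library holds.

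**Figure D1:**
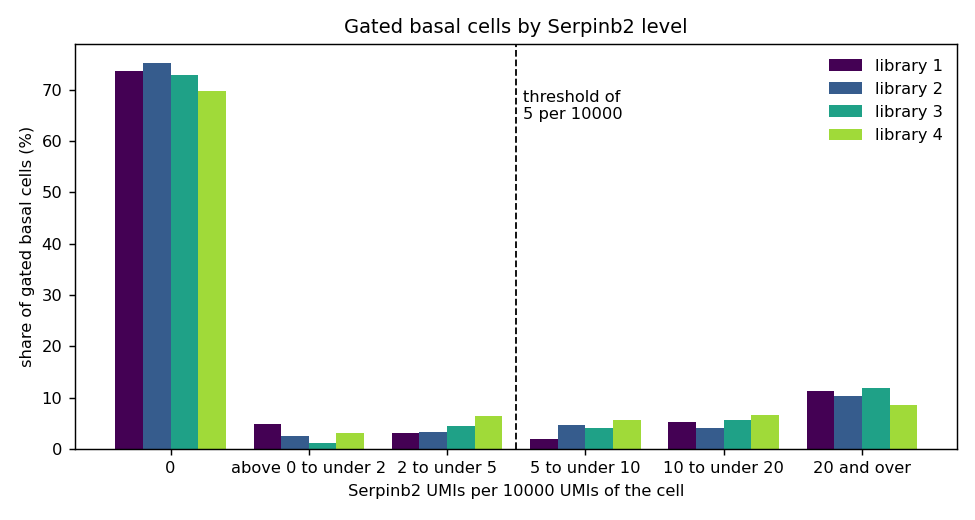
Share of gated basal cells in each of 6 bins of Serpinb2 UMIs per 10000, with a bar for each library. A dashed line marks the cut of 5 per 10000. Most basal cells have no Serpinb2 UMI, and the bins above the cut together hold 18.4% to 21.6% of the cells of a library.

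Calcb and Krt16, the named markers that the rule did not use, were both higher in the Serpinb2-positive cells of every library. The cells were chosen with earlier results of these data known, so these values describe them and do not check their label. The keratins that the rule did use are given as a description. Krt5 stood at 1122, 739, 824 and 899 CPM against 634, 606, 603 and 829 CPM in the other basal cells, Krt14 at 1176, 889, 888 and 474 against 339.6, 604, 526 and 223, and Krt15 at 2053, 1769, 2139 and 3029 against 2891, 2401, 2359 and 3451. The first 2 of these basal keratins were thus at or above the level of the other basal cells and Krt15 was below it, though all 3 helped to choose the cells. Krt13 was at 64.7 to 101 CPM against 16.5 to 25.7, under the ceiling the rule set. Dissociated cells carry no position, so whether these cells lay above the basal layer was not measured.

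Calcb had the largest median ratio among the genes called. It stood at 2152 CPM in library 1 (exact Poisson 95% interval 2064 to 2243), 1774 in library 2 (1691 to 1860), 2001 in library 3 (1930 to 2074) and 921 in library 4 (878 to 967) in the Serpinb2-positive cells, and at 330.1, 102, 271 and 492 CPM in the other basal cells. The classes do not overlap, and library 4 had both the lowest level in the Serpinb2-positive cells and the highest in the others. The log2 ratios were 2.70, 4.10, 2.88 and 0.90. Of the 8 measured genes of the calcitonin peptide system, Calcb alone was called. Calca, which encodes the alpha form of the peptide and marks neuroendocrine cells, stood at 2.88, 5.16, 9.44 and 2.76 CPM in the Serpinb2-positive cells, with a median log2 ratio of 0.16 and no call. Ramp1, which encodes a subunit of the receptor for the peptide, had a median log2 ratio of -1.02 and was not called, and Pam, whose product amidates peptides, had -0.02. In ciliated-gated cells Calcb was at 0 CPM in 3 libraries and 4.44 CPM in the other.

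Across the transcriptome, 86 of 9852 genes tested (0.873%) were called higher and 51 (0.518%) lower in the Serpinb2-positive than in the other basal cells. A gene was called where its CPM differed by at least 1.5-fold in the same direction in each of the 4 libraries and the exact Poisson 95% intervals of both classes were apart in each. It needed 50 UMIs over both classes, and the 12 genes of the rule and mitochondrial genes were left out. Since Serpinb2 chose the cells, these counts describe the class and are no test. The median log2 ratio over all genes tested was 0.00, taken on CPM plus 1. The share of calls that were higher was 62.8%. With cells of at least 3000 UMIs alone, 60 genes were called higher and 35 lower, and with cells thinned to 2000 UMIs 54 and 20, of which 73.0% were higher. After thinning, only 38 of the 86 higher and 14 of the 51 lower genes were still called. All 86 kept a positive and all 51 a negative median log2 ratio. Without library 4, 150 genes were called higher and 73 lower. Where cells with at least 5 Sprr1a UMIs per 10000 were left out of both classes, 60 were called higher and 28 lower. These included 42 of the 86 and 20 of the 51.

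**Figure D2:**
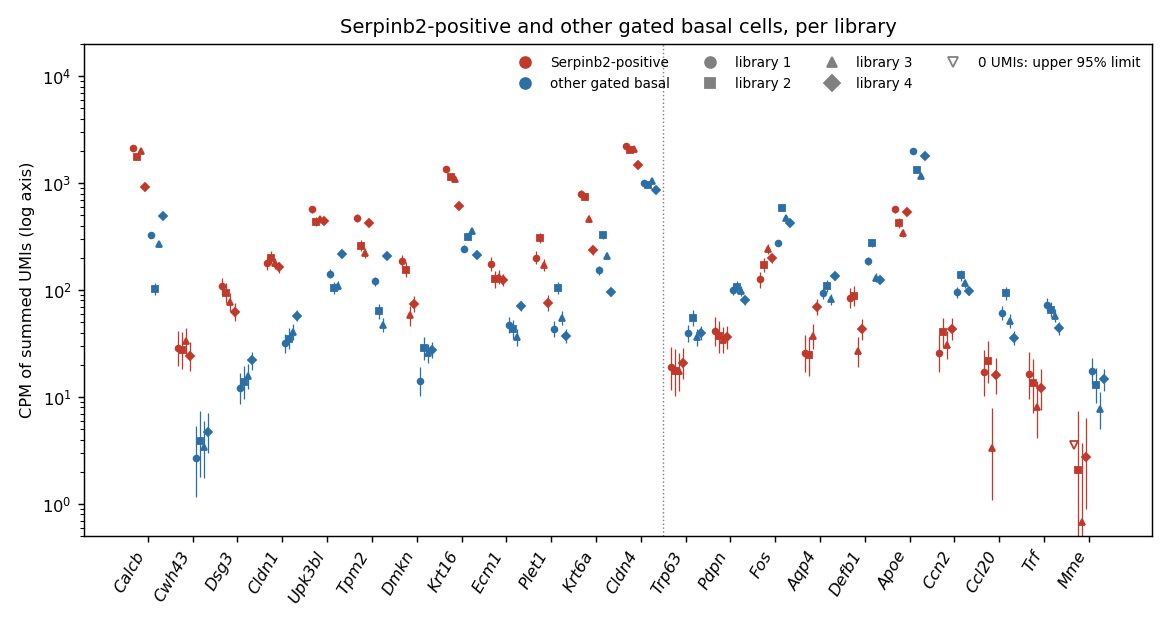
Level in CPM on a log axis of genes called higher or lower, in the Serpinb2-positive and in the other basal cells of each of the 4 numbered libraries. For Calcb, Dsg3 and Krt16 every Serpinb2-positive value lies above every other value, and for Apoe, from 342 to 570.3 CPM against 1160.3 to 1984 CPM, every one lies below.

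Among stress and suprabasal keratins, 2 of 6 measured genes were called higher, Krt16 and Krt6a, and none lower, with a list median log2 ratio of 0.79. Krt16 stood at 1361, 1146, 1082 and 618 CPM in the Serpinb2-positive cells and at 244, 314, 359.7 and 212 CPM in the others. The classes are apart in all 4 libraries, with log2 ratios of 2.48, 1.86, 1.59 and 1.54. Krt6a was at 799.7, 747, 465 and 235 against 154, 326, 209.8 and 96.3 CPM, so library 4 was again the lowest in both classes. Krt17, a further stress keratin, stood at 5336, 5528, 4983 and 2889 against 2539, 2957, 3188 and 2047 CPM and fell short of the call, with a median log2 ratio of 0.77. Of 18 luminal keratins and differentiation factors none was called, at a list median of 0.09. Krt8 (0.38), Krt18 (0.00) and Krt19 (-0.21), keratins of simple and luminal epithelium, had small median log2 ratios.

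Cell-to-cell junction genes made up the list with the most calls by number. Of 22 desmosome and tight junction genes measured, 6 (27.3%) were called higher and none lower, against 0.873% called higher over all genes tested. The share among the stress and suprabasal keratins was larger (33.3%, 2 of 6). Of the 22 genes, 19 were higher in all 4 libraries, against 1849 of 9852 over all genes tested. The list median log2 ratio was 0.60. Dsg3, a desmosomal cadherin of stratified epithelium, was at 108, 94.9, 77.5 and 62.9 CPM in the Serpinb2-positive cells and at 12.2, 13.9, 15.7 and 22.0 CPM in the others. Cldn1, the barrier-forming claudin of stratified epithelium, was at 179, 201, 178 and 163 against 31.9, 35.3, 40.5 and 57.6 CPM. In both genes the ratio was smallest in library 4, where the other basal cells were highest.

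Dsc2, a desmosomal cadherin that pairs with desmogleins, had 121, 89.7, 102 and 82.8 CPM against 44.4, 44.9, 42.5 and 44.7 CPM, a median log2 ratio of 1.12. Cldn4 had 2205, 2058, 2092 and 1477 CPM against 996, 953, 1057 and 859.7 CPM, and Cldn23 60.5 to 115 against 23.1 to 55.4 CPM. Gja1, which encodes the gap junction protein connexin 43, was at 242, 303, 138 and 143 against 155, 132, 83.9 and 92.4 CPM. The plaque proteins Dsp and Jup, which link desmosomes to keratin, had median log2 ratios of 0.44 and 0.60 and were not called. E-cadherin, Cdh1, had 0.32 and P-cadherin, Cdh3, -0.61, neither of them called.

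Of 18 cornified envelope and squamous genes measured, 4 were called higher and none lower, with a list median of 0.62. Ecm1 was at 177, 127, 133 and 125 CPM against 47.1, 43.1, 36.3 and 71.0 CPM in the other basal cells. Dmkn, which encodes the secreted epidermal protein dermokine, was at 186, 156, 58.0 and 74.5 against 14.2, 28.7, 25.7 and 27.6 CPM. Lypd3, a membrane protein of suprabasal and migrating keratinocytes, was at 69.0 to 114 against 24.8 to 29.9 CPM, and Anxa1, a calcium-dependent membrane-binding protein, at 8815 to 13335 against 4903 to 6193 CPM. The precursor of the envelope itself was less clear: involucrin, Ivl, stood at 77.8, 37.1, 41.1 and 17.1 against 33.6, 16.1, 17.1 and 14.6 CPM and was not called. Sprr1a, a small proline-rich envelope protein, stood at 1674, 3169, 1492 and 641 against 2019, 3361, 2138 and 655 CPM, below the other basal cells in each library and not called. As counted, the share of cells with at least 5 Sprr1a UMIs per 10000 went the other way, as given further on. It was higher in the Serpinb2-positive cells of each library. With cells thinned to equal depth, the share with a Sprr1a UMI was higher in libraries 1, 2 and 4. In library 3 it was 51.1%, against 54.9% of the other basal cells.

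Several genes outside these lists had large ratios. Cwh43, whose product remodels lipid anchors, stood at 28.8, 27.8, 33.7 and 24.3 CPM against 2.71, 3.92, 3.43 and 4.74 CPM, a median log2 ratio of 2.76. Upk3bl, a uroplakin-like gene, stood at 567, 435, 462 and 445 against 142, 105, 109.9 and 219 CPM. Psca, which encodes a lipid-anchored surface antigen, was at 1267, 1089, 1257 and 758 against 459, 339, 390.3 and 353 CPM, but 80.8% of its UMIs lay in 76 of the 753 cells, the 10% with the most. Without the cells highest in Psca, Ltf, Cyp2b10, Lgals7 and Calml3, which lowers Psca by construction, its median log2 ratio was -0.14. Plet1 was at 201, 307, 173 and 75.6 against 43.7, 105, 54.8 and 37.3 CPM. Ly6g6c, of the same Ly6 family of lipid-anchored proteins as Lypd3 and Psca, was at 28.7 to 65.0 against 8.85 to 15.6 CPM. Others among the 20 genes with the largest median log2 ratios were Filip1l (2.31), Kctd14 (2.11), the tropomyosin gene Tpm2 (1.99), the caveolar gene Cavin3 (1.81), Tcim (1.70), Ccdc71l (1.67) and the mitochondrial carbonic anhydrase gene Car5b (1.57).

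Serpinb2 acts on the plasminogen system, and its target was among the genes called. Plau, which encodes urokinase, was at 96.0, 38.2, 32.4 and 66.2 CPM in the Serpinb2-positive cells against 29.1, 19.2, 13.7 and 37.3 CPM in the others. It was higher in each library, by a median log2 ratio of 1.07, and the only one of 8 measured plasminogen genes to be called. Plaur, the urokinase receptor, stood at 1966, 1676, 1502 and 1569.9 against 1090.2, 1016, 1167 and 1123 CPM, higher in all 4 libraries but short of 1.5-fold in some. Among 7 measured clade B serpins besides Serpinb2, only Serpinb5 (maspin) was called, at 252, 273, 222 and 249 against 93.5, 157, 114 and 143 CPM.

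Matrix, integrin and protease genes gave 4 calls of 22 measured, all higher, with a list median of 0.39. Tnc, which encodes the wound matrix protein tenascin C, was at 47.0, 34.0, 15.5 and 11 CPM against 12.9, 4.79, 4.85 and 3.09 CPM. Fn1 (fibronectin) was at 152, 178, 82.9 and 88.9 against 82.4, 42.7, 47.7 and 48.0 CPM, and Itga2, a collagen-binding integrin subunit, at 132, 136, 66.1 and 45.3 against 62.0, 53.1, 36.5 and 26.1 CPM. In each of these 3 genes libraries 1 and 2 were the higher pair within the Serpinb2-positive cells. St14 (matriptase), a membrane serine protease of epithelia, was at 153 to 195 against 71.0 to 87.1 CPM. Tmprss11d, another membrane serine protease of airway epithelium, was also called, with a median log2 ratio of 1.27.

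Hemidesmosome and basal identity genes moved in both directions. Trp63, the master transcription factor of basal cells, was at 19.2, 17.5, 17.5 and 21.0 CPM in the Serpinb2-positive cells and at 39.7, 55.3, 36.3 and 39.9 CPM in the others, a median log2 ratio of -1.01. It was lower in each library and still above 0 in each. Pdpn, which encodes the basal surface protein podoplanin, was at 41.3, 37.1, 34.4 and 36.4 against 101, 108, 97.4 and 80.3 CPM. Of 20 genes measured in this list, 2 were called lower and 1 higher, at a list median of -0.11. Itga6, the integrin subunit of hemidesmosomes, stood at 369 to 461 against 277 to 322 CPM and was not called. Ngfr, a surface receptor of airway basal cells, had a median log2 ratio of -0.45 and was not called either.

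Apoe, which encodes a lipid-carrying apolipoprotein, was the lower gene with the most UMIs among the 12 with the lowest ratios. It was at 570.3, 425, 342 and 539 CPM in the Serpinb2-positive cells against 1984, 1337, 1160.3 and 1811 CPM in the others, with log2 ratios of -1.80, -1.65, -1.76 and -1.75. The classes are well apart and the ratio hardly varied between libraries. Apoc1, its neighbour in the apolipoprotein cluster, was at 13.4 to 23 against 45.7 to 81.7 CPM. Cd36, a fatty acid transporter, was at 0.960, 1.03, 3.37 and 2.21 against 12.2, 12.2, 11.1 and 11.9 CPM, on 1, 1, 5 and 4 UMIs in the Serpinb2-positive cells. Trf, which encodes the iron carrier transferrin, was at 8.09 to 16.3 against 43.9 to 73.2 CPM.

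Several genes among the 12 with the lowest ratios rest on few UMIs. Lox, which encodes the collagen cross-linker lysyl oxidase, had 1, 0, 1 and 0 UMIs in the Serpinb2-positive cells against 26, 21, 33 and 26 UMIs in the others, too few for a ratio. Mme, the membrane protease neprilysin, had 0, 2, 1 and 5 UMIs, or 0 to 2.76 CPM, against 7.71 to 17.6 CPM. Ccn2, a matricellular target of YAP and TGF beta signalling, was at 25.9, 40.2, 31.0 and 43.6 against 95.2, 137, 116 and 98.6 CPM, the only call among 16 genes of that list. Fgf1, a fibroblast growth factor, had 1, 3, 3 and 7 UMIs against 26, 37, 33 and 64. Dlk2, an epidermal growth factor-like membrane protein, was at 9.28 to 25.4 against 32.8 to 58.3 CPM. Lsmem1 and 1810010H24Rik complete the 12 lowest, with median log2 ratios of -2.25 and -1.65.

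Of 13 secreted defence genes measured, 2 were called lower and none higher, with a list median of -0.64. Reg3g, an antibacterial lectin, was at 335, 83.5, 355 and 354 CPM against 991, 437, 719 and 733 CPM, and Defb1, a beta defensin, at 84.5, 88.7, 27.0 and 43.1 against 187, 274, 131 and 125 CPM. Within the other basal cells, Reg3g was at 442, 102, 372 and 195 CPM in the Sprr1a-positive ones, compared further on. In the rest of them it was at 1637, 885, 1073 and 936 CPM. Summed secretory markers were also lower in the Serpinb2-positive cells of each library, from 10966 to 29810 against 14290 to 35480 CPM, and their part in these values was not tested. Among 15 cytokines and chemokines, Ccl20, a ligand of CCR6, was called lower, at 17.3, 21.7, 3.37 and 16 against 61.3, 93.6, 51.1 and 36.0 CPM. Il1rn, the interleukin-1 receptor antagonist, was called higher, at 97.0, 71.2, 61.3 and 41.4 against 42.4, 45.3, 26.0 and 22.9 CPM. The 2 calls of that list thus went in opposite directions, at a list median of -0.33.

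Further genes outside the lists were chosen after their values were seen. Ovol1, a repressor that favours epithelial differentiation, was at 224, 187, 283 and 216 CPM against 94.9, 84.9, 130.5 and 132 CPM. The NF-kappaB subunits Rela and Nfkb2 and its feedback inhibitor Tnfaip3 were called higher, with median log2 ratios of 0.88, 0.91 and 0.95. Grhl3, a Grainyhead factor of barrier formation and a member of a list, stood at 26.9, 10.3, 25.6 and 12.1 against 6.78, 3.92, 7.99 and 6.18 CPM, and its low counts left it uncalled. Tnfrsf11b, which encodes the decoy receptor osteoprotegerin, was at 224, 291, 169 and 109.8 against 71.8, 89.3, 67.1 and 65.9 CPM.

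Of 20 AP-1 and immediate early genes, 1 was called lower and none higher. That gene was Fos, at 126, 173, 241 and 198 CPM in the Serpinb2-positive cells against 277, 584, 475 and 422 CPM. Other AP-1 members did not pass, with median log2 ratios of 0.48 for Fosl1, 0.28 for Jun and 0.56 for Junb, and -1.05 for the immediate early gene Egr1. In the Notch pathway, which guides the luminal fates of basal cells, the ligand Dll1 was called lower, at 19.5 to 36.5 against 35 to 63.7 CPM. The receptor Notch1 (0.05) and the target Hes1 (0.14) had median log2 ratios near 0, and Hey1, another target, had -1.26 without passing.

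In the list of 10 lipid mediator genes, Hpgd, which breaks down prostaglandins, was called lower, at 12.5, 28.9, 20.9 and 33.7 against 55.9, 64.9, 47.4 and 66.1 CPM. Ptgs2, which makes them, stood at 593, 549.7, 282 and 293 against 209, 305, 207 and 204 CPM, higher in all 4 libraries but not called. Aqp4, a water channel, was the only call among 13 ion transport genes, at 24.8 to 70.1 against 82.2 to 135 CPM.

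Several lists gave no call in either direction: EGF receptor ligands and receptors (12 genes, median log2 ratio 0.15), heat shock and dissociation genes (10, -0.29), MHC and antigen presentation (9, -0.11), the cell cycle (16, 0.26), p53 and arrest genes (14, -0.03), antioxidant and xenobiotic genes (27, -0.23) and glycolysis and hypoxia (18, -0.06). Of the 10 heat shock genes 7 were lower in all 4 libraries and 0 higher. Of the 19 interferon response genes 9 were lower in all 4 libraries and 0 higher, with a median of -0.52, and 1 was called, Ifi27l2a, at 7.22 to 87.6 CPM against 76.8 to 174 CPM. Over all 9852 genes tested, 1849 were higher and 1816 lower in all 4 libraries. Only 0.873% of them were called higher and 0.518% lower, so lists of these sizes would often give no call.

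**Figure D3:**
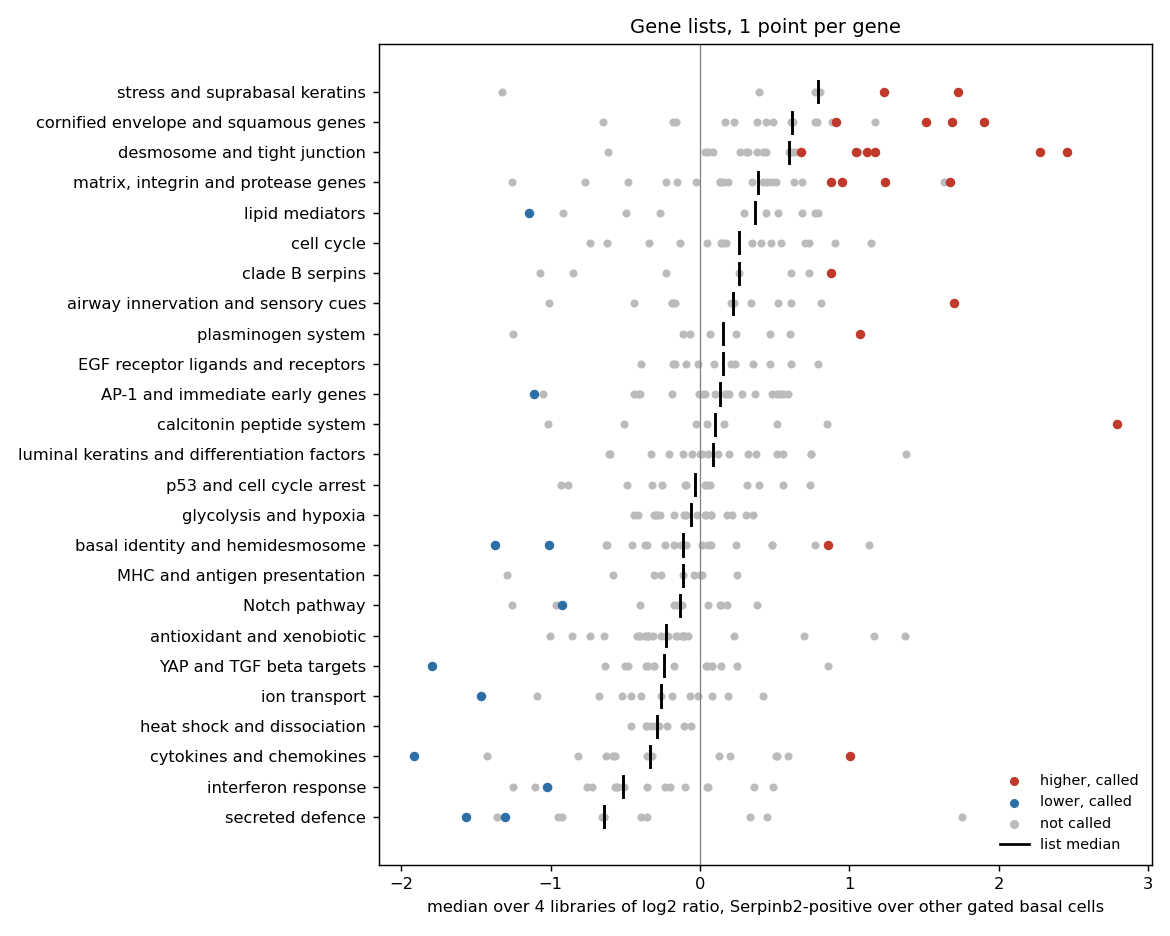
Median log2 ratio of CPM in Serpinb2-positive over other basal cells for the genes of the 25 gene lists, with a point for each gene. Called genes are coloured, and a line marks each list median. Stress keratins (0.79), cornified envelope genes (0.62) and junction genes (0.60) lie furthest to the higher side, and secreted defence genes (-0.64) furthest to the lower side.

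Markers of other cell types were read beside these results. Secretory markers summed to 13954, 10966, 23055 and 29810 CPM in the Serpinb2-positive cells and to 20215, 14290, 28947 and 35480 CPM in the others, lower in each library. Ciliated markers summed to 130 to 214 against 131 to 222 CPM. Hillock markers summed to 21384 to 26335 against 12769 to 14241 CPM, and 3 of the 6 outside the rule were called higher (Ecm1, Anxa1 and Krt6a), while Krt13 and Krt4 were held low by the rule. Of 8 fibroblast markers, 7 were at 0 UMIs and Dcn alone was read, at 69.6 to 105 against 152 to 249.6 CPM. Leukocyte markers summed to at most 2.06 CPM, with 5 at 0. Ionocyte markers summed to 21.7 to 35.9 against 50.1 to 75.1 CPM, with Foxi1 at 0. Proliferation markers summed to 490 CPM in library 1 and to 131 CPM in the lowest library, against 114 to 229 CPM in the other basal cells.

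Levels were also followed along Serpinb2 over all gated basal cells, in 6 bins holding 2678, 96, 174, 159, 209 and 385 cells from 0 to at least 20 Serpinb2 UMIs per 10000. The mean Calcb level over the 4 libraries was 220, 701, 775, 729, 1478 and 2168 CPM from the lowest bin to the highest. Krt16 went 253, 318, 582, 547, 920.0 and 1246 CPM, and Dsg3 12.4, 36.2, 37.2, 53.3, 73.0 and 98.6 CPM. On average these genes were thus higher in the bins just below the cut than in cells without Serpinb2, and highest in the top bin. Single libraries departed from this: in library 2 Calcb was at 73.8 CPM in the lowest bin and 56.7 CPM in the next, which held 15 cells, and in library 4 Calcb was higher in that second bin (1423 CPM) than in the top bin (1171 CPM). Krt16 fell from the lowest bin to the second in library 2 (298 to 191 CPM) and library 4 (200 to 193 CPM). Dsg3 in library 2 was at 14.9, 14.2 and 0 CPM in the bins below the cut.

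Apoe ran the other way, at 1713, 577, 922, 537, 549 and 391.8 CPM, with every bin that had Serpinb2 below the bin without it. Trp63 stood at 44.8, 39.4, 27.1, 16.4, 21.4 and 17.4 CPM. Krt5 ranged from 658 to 943 CPM, and Sprr1a, from 1741 to 2516 CPM, had no steady order. The bin above 0 and under 2 had a median depth of 8205 UMIs a cell against 3703.5 in the bin at 0, since only deep cells can show so small a share, and the part of depth in its values was not tested.

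**Figure D4:**
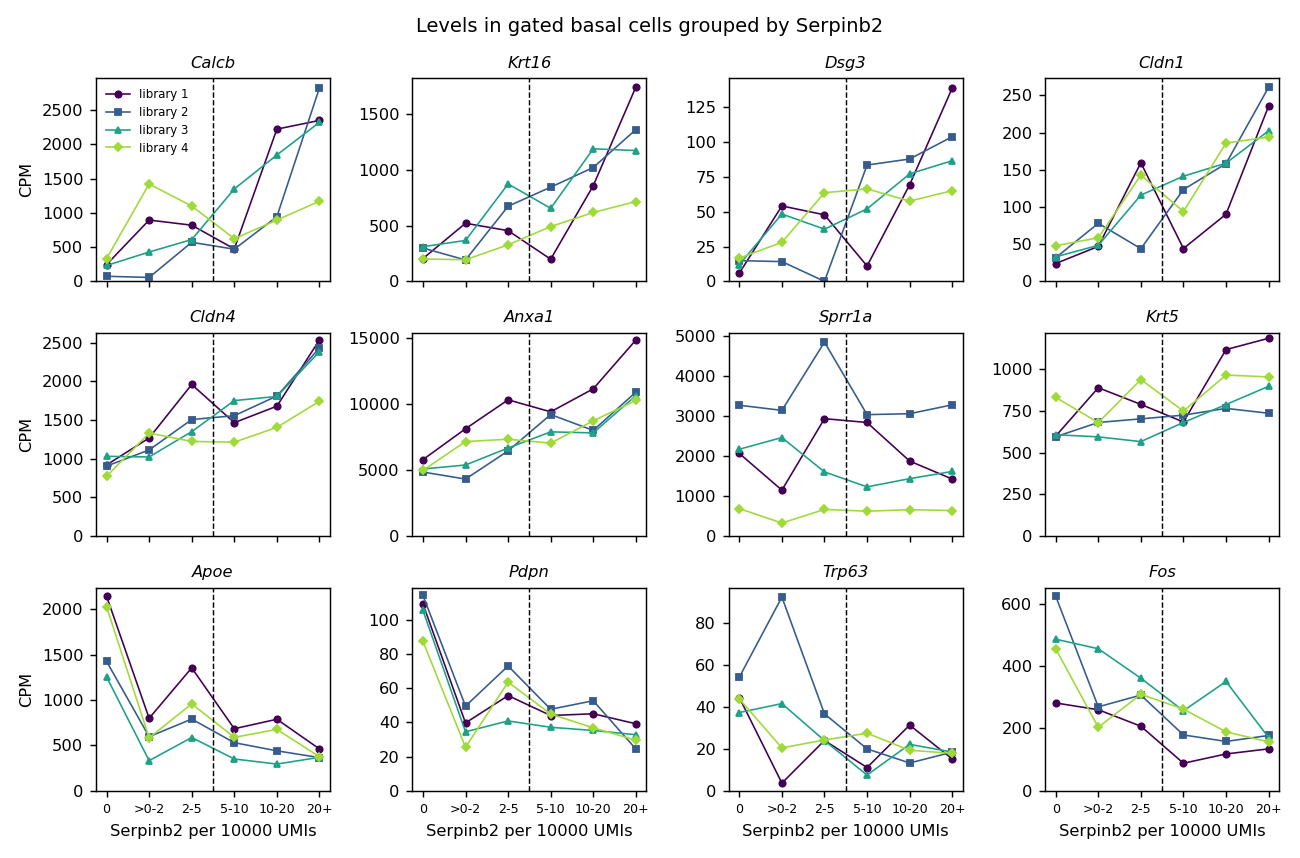
CPM of 12 genes in 6 bins of Serpinb2 per 10000 UMIs, 1 line per library. Calcb and Krt16 are highest in the top bin on average (2168 and 1246 CPM), Apoe is lowest there (391.8 CPM), and Sprr1a has no steady order.

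The Serpinb2-positive cells were not uniform. With 743 of them thinned to 2000 UMIs, 47.8% (exact 95% interval 44.1 to 51.4) had a Calcb UMI against 11.5% of 2754 other basal cells, and 46.8% a Krt16 UMI against 17.0%. Without thinning the shares were 56.6% and 58.0%. Dsg3 was found in 12.1% against 2.29%, Cldn1 in 26.8% against 6.46%, Cldn4 in 89.8% against 60.2%, Apoe in 42.8% against 73.1% and Trp63 in 3.63% against 7.88%. Cldn4 was thus near universal at this depth, while Calcb and Krt16 were each seen in fewer than 1 cell of 2. The 76 cells with the most Calcb held 59.6% of its UMIs, and the 76 with the most Krt16 held 58.7%.

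Calcb and Krt16 tended to occur in the same cells. Among thinned Serpinb2-positive cells, Krt16 was found in 57.5% of the 355 with Calcb and in 37.1% of the 388 without it. The shares were 59.4% and 38.1% in library 1, 65.1% and 42.2% in library 2, 59.2% and 35.6% in library 3, and 50.9% and 36.0% in library 4, the same order each time. Krt6a was found in 47.1% of the 348 cells with Krt16 and 29.9% of the 395 without. Apoe went the other way, in 35.2% of cells with Calcb and 49.7% without, and Sprr1a was found in 54.1% and 53.9%.

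Sprr1a divides the Serpinb2-positive cells. At 5 or more Sprr1a UMIs per 10000 were 380 of the 753 (50.5%, exact 95% interval 46.8 to 54.1), against 1239 of the 2948 other basal cells (42.0%, 40.2 to 43.8). By library the shares were 69.2%, 77.0%, 49.8% and 31.8%, against 50%, 53.5%, 48.0% and 26.5%. Among thinned cells, a Sprr1a UMI was found in 54.0% of the Serpinb2-positive and 48.9% of the other basal cells. In library 3 the order was reversed there, at 51.1% against 54.9%. Both classes had the highest shares in library 2 and the lowest in library 4. Between the 373 Serpinb2-positive cells below that level and the 380 above it, the mean over libraries was 1556 and 1785 CPM for Calcb, 1287 and 923 for Krt16, and 92.7 and 80.7 for Dsg3, so these genes were high with or without Sprr1a. Apoe was at 304 and 581 CPM, lower in both than the 1531 CPM of cells with Sprr1a alone.

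The 1239 cells with Sprr1a and little Serpinb2 share the basal gate and the squamous gene Sprr1a and were compared directly. Of 8672 genes tested, 63 (0.726%) were called higher and 25 (0.288%) lower in the Serpinb2-positive cells. The Serpinb2-positive libraries are the same as in the first comparison, and 40 of the 63 higher and 19 of the 25 lower genes were called there too, out of 86 and 51. Without library 4, 112 genes were called higher and 44 lower. Calcb was at 453, 147, 325 and 529 CPM in the Sprr1a class, for log2 ratios of 2.25, 3.59, 2.62 and 0.80. Dsg3 had a median log2 ratio of 2.57 and Krt16 of 1.59, close to the values against all other basal cells.

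Among the lower genes, Hmox1, which encodes the stress enzyme heme oxygenase 1, was at 318, 294, 250.1 and 196 CPM in the Serpinb2-positive cells against 605, 847, 674 and 420.3 CPM. Apoe (-1.75), Ccl20 (-2.04), Trf (-1.89) and Defb1 (-1.80) were again lower. Reg3g was not lower in each library, at 335, 83.5, 355 and 354 against 442, 102, 372 and 195 CPM. Genes called here but not against all other basal cells included 5 singled out after their values were seen. Ltf (lactoferrin) was at 289.9, 289, 439 and 614 against 18.8, 14.5, 77.6 and 30.02 CPM. Basal cells low in both Serpinb2 and Sprr1a had more Ltf still, at 521, 329, 564 and 795 CPM, and within the Serpinb2-positive cells it was at 816 CPM without Sprr1a and 114 CPM with it, so its level went with low Sprr1a. The others, by median log2 ratio, were Cyp2b10 (2.69), the galectin Lgals7 (2.61), Calml3 (2.56) and Cldn3 (1.46). Ltf is a product of secretory cells; it stood at 4377 CPM in secretory-gated cells, and 97.5% of its UMIs in the Serpinb2-positive cells lay in 76 cells. The part of secretory RNA in these few values was not tested.

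The 72 hillock cells were 6, 12, 28 and 26 by library, and library 1 held only 43030 UMIs of them. Of 7266 genes tested, 97 (1.33%) were called higher and 134 (1.84%) lower in the Serpinb2-positive cells. The counts were 161 and 211 without library 1, and 151 were higher without library 2. Krt16 stood at 1673, 2076, 3154 and 1527 CPM in hillock cells, above the Serpinb2-positive cells in each library but not called, with log2 ratios from -1.54 to -0.30. Calcb was uneven among hillock libraries, at 2882, 19.8, 1207 and 563 CPM. Serpinb2 and Calcb thus did not go together in the hillock cells of library 2.

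Genes higher in the Serpinb2-positive than in the hillock cells are given with UMIs where hillock libraries were at 0, and were chosen after their values were seen. Fermt2, which encodes the integrin activator kindlin-2, had 122, 159, 128 and 135 CPM and 0 UMIs in hillock cells of every library. Snai2, a transcription factor of basal and migrating cells, had 141, 152, 87.6 and 113 CPM against 0, 0, 2 and 0 UMIs, and Itga2 had 0, 0, 2 and 0 UMIs in hillock cells. Fn1 had 0, 0, 0 and 4 UMIs there. Plaur was at 69.7, 185, 374 and 443 CPM in hillock cells, a median log2 ratio of 2.59. Apoe, which separated the Serpinb2-positive cells from other basal cells on the low side, was at 0, 6.61, 49.0 and 26.0 CPM in hillock cells, so the Serpinb2-positive cells lay between those classes.

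The Serpinb2-positive cells were lower than hillock cells in 134 genes. Among them, Ly6g6c had a median log2 ratio of -5.92, Muc21 (a membrane mucin) -5.72, Hopx -5.02, Calml3 -4.04, Aqp5 (a water channel) -3.73 and Ecm1 -3.33. Psca was at 8831, 6036, 5929 and 4981 CPM in hillock cells, and Dsg3 at 372, 278, 220.5 and 214. Over all libraries, from basal cells low in Serpinb2 and Sprr1a, through Sprr1a-positive and Serpinb2-positive to hillock cells, Krt16 stood at 244, 312, 990.1 and 2173 CPM, Krt6a at 136, 228, 504 and 1874, and Dsg3 at 17.1, 16.6, 81.8 and 246. Trp63 stood at 48.3, 33.0, 19.0 and 3.64 CPM and Pdpn at 99.2, 86.9, 36.9 and 5.46. Some genes were highest in the Serpinb2-positive cells. Calcb stood at 309.9, 365, 1621 and 786 CPM, although in library 1 its level in hillock cells was above theirs. Fn1 stood at 48.8, 61.6, 116 and 7.28, Tnfrsf11b at 50.9, 97.4, 182 and 107, and Plau at 29.7, 22.1, 57.5 and 18.2.

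**Figure D5:**
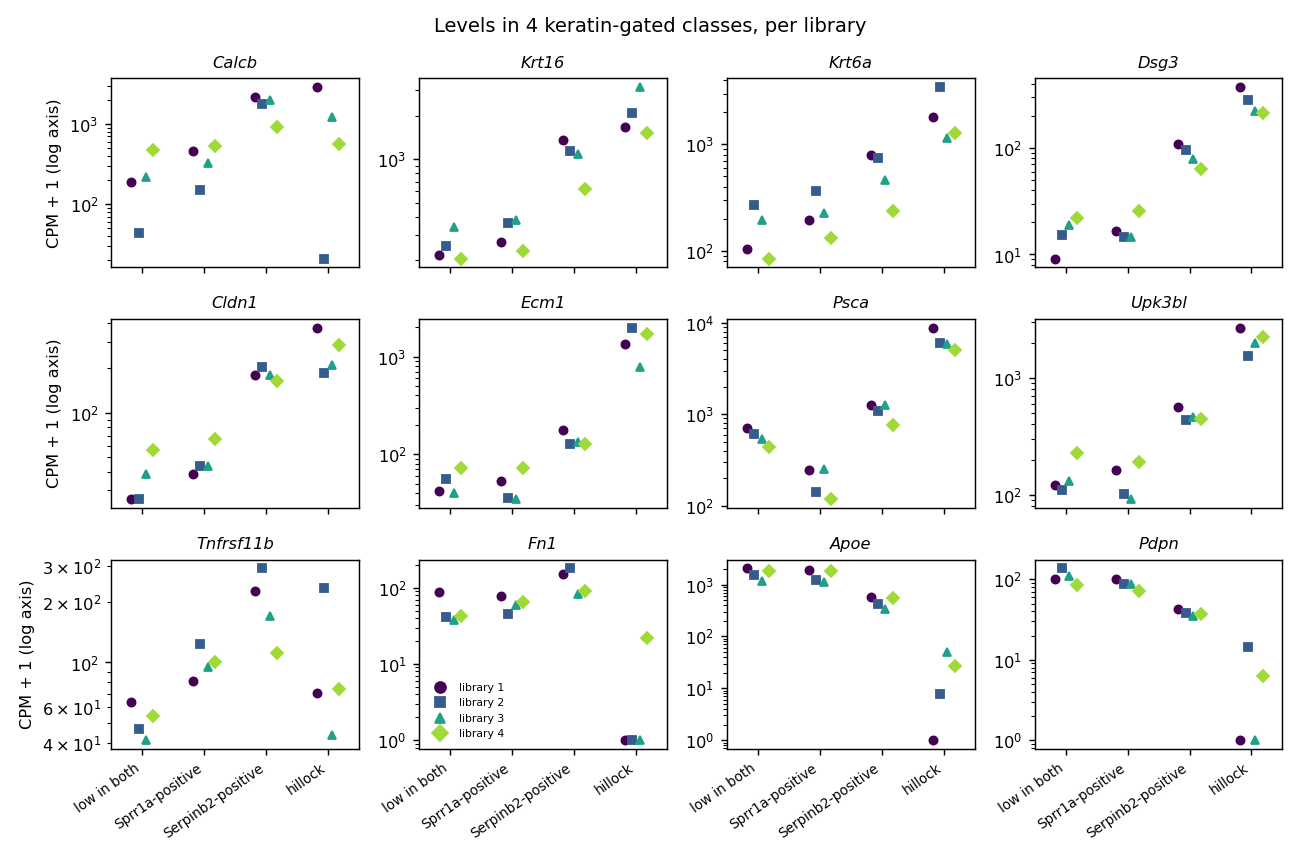
CPM plus 1 on a log axis of 12 genes in 4 classes (low in both Serpinb2 and Sprr1a, Sprr1a-positive, Serpinb2-positive and hillock), 1 point per numbered library. Krt6a, Dsg3 and Ecm1 are highest in hillock cells, Fn1 is highest in the Serpinb2-positive cells, and Apoe and Pdpn are lowest in hillock cells.

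Within the Serpinb2-positive cells, 547 of 6982 genes (7.83%) differed at least 2-fold between the highest and lowest library with Poisson intervals apart. For 315 of them the same library was highest among the other basal cells, and for 178 both extremes were the same. Sprr1a ran from 641 CPM in library 4 to 3169 in library 2, and Krt6a from 235 in library 4 to 799.7 in library 1. Calcb and Krt16 were highest in library 1 and lowest in library 4, 2.34-fold and 2.20-fold apart. Each library is 1 pool of mice, so a difference between libraries has no replicate check, and genotype, pool and library cannot be told apart.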

How the data were processed

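The deposited matrix holds raw UMI counts per gene and barcode for all 4 libraries, made by the authors with Cell Ranger 6.0.1 per the file headers and on GRCm39 per the submitters' processing notes; the gene annotation's release is not given in the sources used here. Libraries are the barcode endings 1 to 4. The cells, gene lists and tests were chosen with earlier results of these data known. UMIs were summed per library and class and compared within each library as log2 of CPM plus 1, with exact Poisson or Clopper-Pearson 95% intervals that cover counting error only. No p-value was computed, since cells are not replicates. The genes named by rule were the 20 with the highest and the 12 with the lowest median log2 ratio among those called, the 4 markers, and called or central genes of each list; others were singled out after their values were seen. In simulated data on 9852 genes with 3-fold changes, the call recovered 96% of raised and 64% of lowered genes and called 0 unchanged ones. Doublets were not removed; an alternative removed the highest Scrublet scores, at 0.8% per 1000 cells of a library (30 principal components). Other alternatives changed the thresholds, depth, scaling, pseudocount, filter and libraries. Python 3.11.15, numpy 2.4.6, scipy 1.17.1, pandas 2.3.3, scanpy 1.11.5 and matplotlib 3.10.9 were used. Some genes that the rule names are not reported here.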

Additional observations from a re-analysis of the deposited data

How the results depend on the processing

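No paired analysis was possible because no samples are paired across genotypes, each of which has 1 library whose number is not known. The classes of cells were compared within each library throughout. The share of gated basal cells that are Serpinb2-positive was 20.3%. It became 25.05% at a cut of 2 Serpinb2 UMIs per 10000, 16.05% at a cut of 10 and 18.8% with a basal sum of at least 0.5%. With cells thinned to 2000 UMIs, where a single Serpinb2 UMI meets the cut, it was 22.7%. Leaving out 1 library gave 19.7% to 20.7%. Against other basal cells the 86 higher and 51 lower genes became 54 and 20 with thinning, among them 38 of the 86 and 14 of the 51. Without Sprr1a-positive cells 60 were higher and 28 lower, among them 42 of the 86 and 20 of the 51. Leaving out 1 library gave 95 to 150 higher and 61 to 73 lower genes, with the 150 without library 4. Against Sprr1a-positive cells it gave 74 to 112 higher and 27 to 44 lower, and against hillock cells 102 to 161 higher and 143 to 211 lower. A call had to hold in each library, so fewer libraries allow more calls. Genes that differed between libraries fell from 547 to 200 with at least 200 UMIs, as fewer were tested. The log2 ratio of Psca became -0.14 without the Serpinb2-positive cells highest in Psca, Ltf, Cyp2b10, Lgals7 and Calml3, an exclusion on Psca itself. That alternative, and those for the comparisons with Sprr1a-positive and hillock cells and between libraries, were chosen after seeing the data. Without likely doublets 91 genes were higher and 55 lower, among them 77 of the 86 and 49 of the 51. For 53 named genes, 807 values kept their direction within the spread between libraries, 40 moved beyond it and 1 reversed. Low counts limit Lox, Cd36, Fgf1, Mme and Grhl3, and no result has a replicate library.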

Other observations

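A few Serpinb2-positive cells of library 1 carried cell cycle genes. Mki67, a marker of cycling cells, stood at 62.4, 7.22, 12.8 and 7.18 CPM in libraries 1 to 4 and at 1.36, 12.6, 6.57 and 10.7 CPM in the other basal cells. Top2a, which untangles replicated DNA, stood at 57.6, 10.3, 27.6 and 12.1 CPM, and Ube2c, which acts at the end of mitosis, at 60.5, 13.4, 10.8 and 8.83 CPM. In library 1, 10.3% of the Serpinb2-positive cells had a Mki67 UMI, against 2.33% to 3.64% in the other libraries, and 1 cell held up to 16 of them. The neutrophil calprotectin gene S100a8, at 72.0 CPM in library 1 and at most 6.74 CPM elsewhere, came mostly from 1 cell with 67 UMIs.

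Psca, Ltf, Lgals7, Cyp2b10 and Calml3 were concentrated in few Serpinb2-positive cells. Lgals7, a galectin of stratified epithelium, was found in 8.10% of them, and 76 cells held all of its UMIs. Cyp2b10, a detoxifying cytochrome, was found in 12.2%, with 91.6% of its UMIs in 76 cells, and Calml3, a calmodulin-like gene of epithelia, in 12.6%, with 89.0% of its UMIs in 76 cells. Tnfrsf11b was spread more widely, in 38.4% of cells with 59.1% of its UMIs in the top 76, and Upk3bl in 68.3% with 48.3%.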
